A study of Mus musculus with 36 samples.

Results

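The liver RNA of 10 genes of gluconeogenesis was followed across 36 male mice: Pck1, Pck2, G6pc, G6pc3, Fbp1, Pcx, Slc37a4, Gpd1, Gk and Aqp9. The genes were chosen by name, as the probes other than controls whose gene name in the array files is one of these symbols, out of 24250 genes tested and 37324 on the array. For 9 of the 10 the symbol itself was found. Gk carried its older name, Gyk, and was matched through RefSeq. The 10 genes had 17 probes, all 17 of which passed the filter on dim probes, and the brightest probe stands for each gene. That probe was well above background on all 36 arrays for each of the 10.

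Each array held the liver RNA of 1 mouse, in 6 groups of 6. CTRL mice were the controls, and AAKO mice lacked ATGL, the lipase that starts the release of fatty acids and glycerol from stored fat, in white adipose tissue. The labels do not name the promoter or Cre driver behind the deletion. Mice of each genotype were fed freely, left without food for 24 h, or kept fed and dosed with CL316243, a drug that switches on fat breakdown in adipocytes through the beta 3 adrenergic receptor, at 3 mg/kg by gavage at Zeitgeber time 10. All were males on a C57Bl/6J background and were sampled in the dark, at Zeitgeber time 16. Both fed groups came from experiment 2 and the other 4 groups from experiment 1, so a difference between fed mice and either other condition cannot be told apart from a difference between experiments. A gavage is recorded for the CL316243 groups only. Since the deletion was made in fat, the Pnpla2 signal of liver cannot check the genotype labels. Nothing in the labels ties arrays of different groups to shared litters.

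Gluconeogenesis is the route by which the liver makes new glucose during fasting. Lactate and some amino acids enter it through pyruvate, which pyruvate carboxylase (Pcx) turns into oxaloacetate. A phosphoenolpyruvate carboxykinase (cytosolic Pck1, mitochondrial Pck2) turns oxaloacetate into phosphoenolpyruvate. Glycerol set free by adipose lipolysis takes a shorter way: it enters the hepatocyte through the channel aquaporin 9 (Aqp9), is phosphorylated by glycerol kinase (Gk) and is oxidised by cytosolic glycerol 3-phosphate dehydrogenase (Gpd1). Both ways meet at the triose phosphates, below fructose bisphosphatase (Fbp1). The last step takes place in the endoplasmic reticulum, where the transporter Slc37a4 brings glucose 6-phosphate to the catalytic subunit G6pc, or to G6pc3, its widely expressed relative. Fasting hormones act on Pck1 and G6pc largely through transcription, with cyclic AMP and the factor CREB among the best known regulators, and insulin acts in the opposite direction in part through FoxO1.

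The promoters of Pck1 and G6pc are shown because they are the textbook examples of this control. RefSeq promoter sequences (GRCm38.p6) were used for 9 of the 10 genes, and that of Gpd1 was not analysed here. The 250 bases before each start are printed 5′ to 3′ on the gene's strand, with matched motifs in capitals. The Pck1 stretch is chr2:173152823-173153072 and the G6pc stretch is chr11:101367466-101367715, both on the plus strand.
Pck1: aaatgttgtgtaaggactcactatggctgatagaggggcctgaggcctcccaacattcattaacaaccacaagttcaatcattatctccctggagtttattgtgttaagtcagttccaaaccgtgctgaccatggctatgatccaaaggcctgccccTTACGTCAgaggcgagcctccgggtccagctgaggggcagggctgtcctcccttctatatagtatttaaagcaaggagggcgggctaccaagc
G6pc: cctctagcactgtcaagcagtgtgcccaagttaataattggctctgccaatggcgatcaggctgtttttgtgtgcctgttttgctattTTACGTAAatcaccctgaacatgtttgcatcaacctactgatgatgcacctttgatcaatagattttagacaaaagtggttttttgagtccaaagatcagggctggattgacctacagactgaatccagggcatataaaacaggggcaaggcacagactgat
The capitals in Pck1 mark TTACGTCA, a variant of the cyclic AMP response element, which began 93 bases before the start. It was found on either strand in 0.447% of 32851 mouse promoter stretches of the same length. The capitals in G6pc mark the palindrome TTACGTAA, which began 162 bases before the start, was read off this stretch after it was seen, and occurred in 0.113% of the stretches. The full element TGACGTCA, present in 1.55% of all stretches, and the FoxO core GTAAACA, present in 3.17%, were matched in none of the 13 stretches of the 9 genes. The shorter core TGACG, which overlaps the match in Pck1, occurred in 17.8% of all stretches and, besides Pck1, in stretches of Slc37a4. These are matches of letters and show no binding. GTAAACA was the only FoxO sequence searched, so a lack of FoxO sites cannot be read from this.

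From 33130 to 37200 probes of an array cleared the background, and no spot was saturated. Values below are log2 signals scaled to the array's own 75th percentile, so 0 is the brightness of that percentile, and levels of different genes are not compared because their probes differ. A gene is called where its adjusted p is under 0.05 in a limma fit over all 36 arrays with Benjamini-Hochberg adjustment over the 24250 genes. Errors of differences are standard errors of that fit. All 5 hepatocyte markers were well above background in every group, at summed linear levels of 2670 to 2880 in CTRL fasted livers and 2410 to 2610 in AAKO fasted livers, which did not overlap. Summed markers of other cells in the same groups were 57.9 to 72.0 and 74.5 to 98.6 for stellate cells (4 markers), 11.2 to 23.3 and 19.3 to 24.5 for endothelial cells (4), 17.1 to 60.8 and 10.2 to 59.3 for Kupffer cells (5), 0.654 to 1.15 and 0.381 to 0.701 for cholangiocytes (4), and 0.889 to 49.8 and 5.62 to 79.1 for neutrophils (4). Adipocyte markers (5) summed to at most 1.11 in any group and kidney tubule markers (4) to at most 0.380, with Umod and Slc12a1 not well above background on any array. The part of these shifts in the differences below was not tested, and in bulk liver fewer hepatocytes and less RNA per hepatocyte cannot be told apart.

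In fasted livers, the genes that bring in glycerol stood far lower without adipose ATGL, Pcx stood lower, and the genes of glucose release stood level or higher. Of the 10 genes, 4 fell (Gpd1, Gk, Aqp9 and Pcx) and 2 rose (G6pc3 and Slc37a4), where 49.3% of all genes tested were called, 28% lower and 21.3% higher. A count of 6 of 10 is near that background. After CL316243, 3 of the 10 fell (Gpd1, Gk and G6pc3) and Pcx rose, where 24.8% of all genes were called, 11.3% lower and 13.4% higher. In fed livers none of the 10 was called, where 0.0784% of all genes were (19 genes, with 1644 at an unadjusted p under 0.05). That background of 19 genes ranged from 8 to 36 when single fed arrays were left out, with counts of 10, 8 and 9 without CTRL fed replicates 3, 5 and 1, 36 without CTRL fed replicate 4, and 10 and 9 without AAKO fed replicates 1 and 6. The 10 fed differences lay between -0.24 and 0.23.

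Gpd1, whose product oxidises glycerol 3-phosphate to dihydroxyacetone phosphate, differed most. It was read by a probe at chr15:99555334-99555393 (mm9). In CTRL fasted livers its lowest, median and highest values were 6.14, 6.99 and 7.24, and in AAKO fasted livers they were 4.28, 4.66 and 5.30. Every AAKO fasted array lay below every array of the other 5 groups. The fitted difference was -2.17 ± 0.15, a 4.50-fold lower signal (adjusted p = 2.94e-13), and it was -2.18 within wash batch 1 and -2.16 within wash batch 2. After CL316243 the values were 6.97, 7.09 and 7.23 in CTRL mice and 5.90, 6.03 and 6.27 in AAKO livers, again without overlap. That difference was -1.08 ± 0.15, or 2.11-fold (adjusted p = 1.65e-06). Fed livers spanned 6.30 to 6.67 in CTRL and 6.22 to 6.73 in AAKO mice, and the difference was -0.11 ± 0.15 (adjusted p = 0.919). A second, dimmer Gpd1 probe gave -1.94 fasted and -0.98 after CL316243.

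Gk, the kinase that traps glycerol in the cell, differed likewise at a smaller size (probe at chrX:82948091-82948150 of mm9, minus strand). CTRL fasted livers ranged from 2.98 to 3.71 with a median of 3.24, and AAKO fasted livers from 1.24 to 1.96 with a median of 1.82. The ranges did not overlap, and the difference was -1.57 ± 0.14, or 2.97-fold (adjusted p = 5.51e-11). After CL316243 the range was 2.76 to 3.58 in CTRL (median 3.10) and 2.16 to 2.52 in AAKO livers (median 2.29), a difference of -0.83 ± 0.14, or 1.77-fold, with no overlap (adjusted p = 2.90e-05). In fed livers the medians were 2.52 and 2.50, and the ranges were 2.16 to 2.61 in CTRL and 2.24 to 2.72 in AAKO mice. The other 2 Gk probes gave -1.67 and -1.78 fasted and -0.69 and -0.61 after CL316243, the last of which was not called (adjusted p = 0.103 among probes).

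Aqp9, the glycerol channel of the hepatocyte, separated the genotypes in fasting but overlapped after CL316243 (probe at chr9:70958495-70958554 of mm9, minus strand). CTRL fasted livers ran from 5.29 over a median of 5.93 to 6.04, and AAKO fasted livers from 3.97 over 4.61 to 4.74. All 6 AAKO fasted arrays were lower than the lowest array of any other group, and the difference was -1.33 ± 0.11, or 2.51-fold (adjusted p = 5.53e-11). After CL316243 the groups overlapped, at 6.08 to 6.37 with a median of 6.23 in CTRL and 5.78 to 6.49 with a median of 5.99 in AAKO livers. That difference was -0.19 ± 0.12, with a 95% interval of -0.42 to 0.05 (adjusted p = 0.252). The fasted difference exceeded the one after CL316243 by -1.14 ± 0.16 (adjusted p = 2.79e-06). A second, much dimmer Aqp9 probe did not give this picture, at -0.58 fasted and 1.65 after CL316243, neither called, and the mean of both probes turned the CL316243 difference to 0.73 (adjusted p = 0.145).

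**Figure D1:**
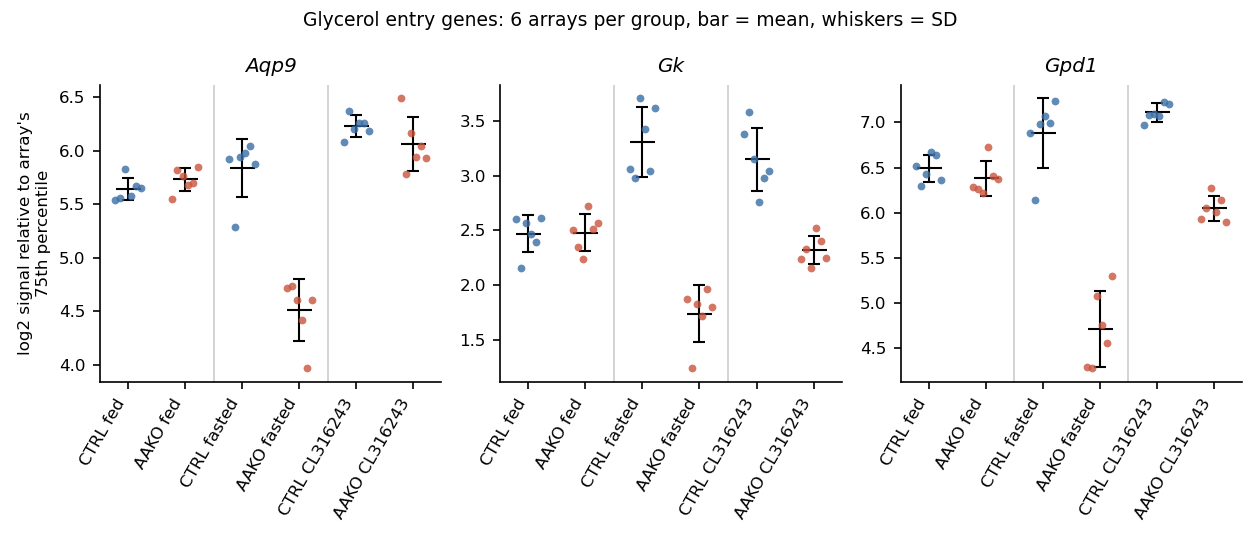
Log2 signal scaled to the array's 75th percentile for Aqp9, Gk and Gpd1 in 36 livers. Points are single arrays (blue CTRL, red AAKO, 6 per group), horizontal bars are group means and whiskers are SDs. AAKO fasted arrays lie lowest in each panel, between 4.28 and 5.30 for Gpd1, and AAKO CL316243 arrays lie below the CTRL CL316243 arrays for Gk and Gpd1 but not for Aqp9.

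Pcx, the entry point of pyruvate, differed between genotypes in opposite directions under the 2 stimuli (probe at chr19:4621610-4621669 of mm9). Fasted CTRL livers ranged from 6.53 to 6.82 (median 6.57) and fasted AAKO livers from 5.73 to 5.99 (median 5.90). There was no overlap, and the difference was -0.73 ± 0.07, or 1.66-fold lower in AAKO (adjusted p = 1.34e-09). After CL316243 the AAKO livers were the higher ones, at 6.39 to 6.66 (median 6.58) against 6.03 to 6.37 (median 6.18) in CTRL. That difference was 0.35 ± 0.07, or 1.27-fold, without overlap (adjusted p = 0.00075), and it was 0.26 within wash batch 1 (adjusted p = 0.0804) and 0.42 within wash batch 2 (adjusted p = 0.0387). The fasted and CL316243 differences were unequal, by -1.08 ± 0.11 (adjusted p = 1.07e-08). In fed livers the medians were 6.04 in CTRL and 6.03 in AAKO mice, with a difference of 0.00 ± 0.07 and an interval of -0.15 to 0.15.

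Pck1, the cytosolic enzyme whose RNA is the usual gauge of gluconeogenic drive, showed no genotype difference called in the fit used throughout (probe at chr2:172984307-172984366 of mm9). CTRL fasted livers ranged from 7.59 over a median of 8.02 to 8.47, and AAKO fasted livers lay at the upper end of that range, at 8.35, 8.39 and 8.54. The AAKO fasted arrays were thus tighter (SD 0.08) than the CTRL fasted arrays (SD 0.33). The difference of 0.41 ± 0.18 was not called (adjusted p = 0.0635, interval 0.04 to 0.78), and it passed the threshold without CTRL fasted replicate 5 (0.50, adjusted p = 0.0259) or replicate 1 (0.46, adjusted p = 0.0481). It also passed with the slide as a block (0.48, adjusted p = 0.0365), with normexp background correction (0.43, adjusted p = 0.0421), with median scaling (0.45, adjusted p = 0.0392) and in a fit of these 2 groups alone (0.41, adjusted p = 0.0338). After CL316243 the values were 7.94, 8.20 and 8.45 in CTRL mice and 8.22, 8.55 and 8.69 in AAKO livers, a difference of 0.33 ± 0.18 (adjusted p = 0.206). In fed livers 2 arrays of each genotype stood apart at the low end, at 7.20 and 7.29 in CTRL and 6.64 and 7.42 in AAKO mice, while the other 8 lay between 7.80 and 8.04. The fed difference was -0.04 ± 0.18.

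Pck2, the mitochondrial form, likewise showed no called genotype difference (probe at chr14:56167465-56167524 of mm9). Group medians were -1.29 and -1.06 in fed, -0.81 and -0.42 in fasted, and -1.15 and -1.05 in CL316243 livers, with CTRL first in each pair. Single arrays spanned -1.60 to -0.22 over all groups, and each pair of genotypes overlapped. The differences were 0.23 ± 0.16, 0.26 ± 0.16 and 0.06 ± 0.16 (adjusted p = 0.815, 0.184 and 0.841). A second Pck2 probe was well above background on 8 of the 36 arrays and is not used.

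Fbp1, which commits triose phosphates to hexose, was nearly level between genotypes (probe at chr13:62966175-62966234 of mm9, minus strand). The medians were 8.72 in CTRL and 8.83 in AAKO fed livers, 8.64 and 8.67 in fasted livers, and 8.96 in both CL316243 groups. The 3 genotype differences were 0.06, -0.07 and -0.04, each ± 0.08, and their 95% intervals stayed between -0.22 and 0.21.

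**Figure D2:**
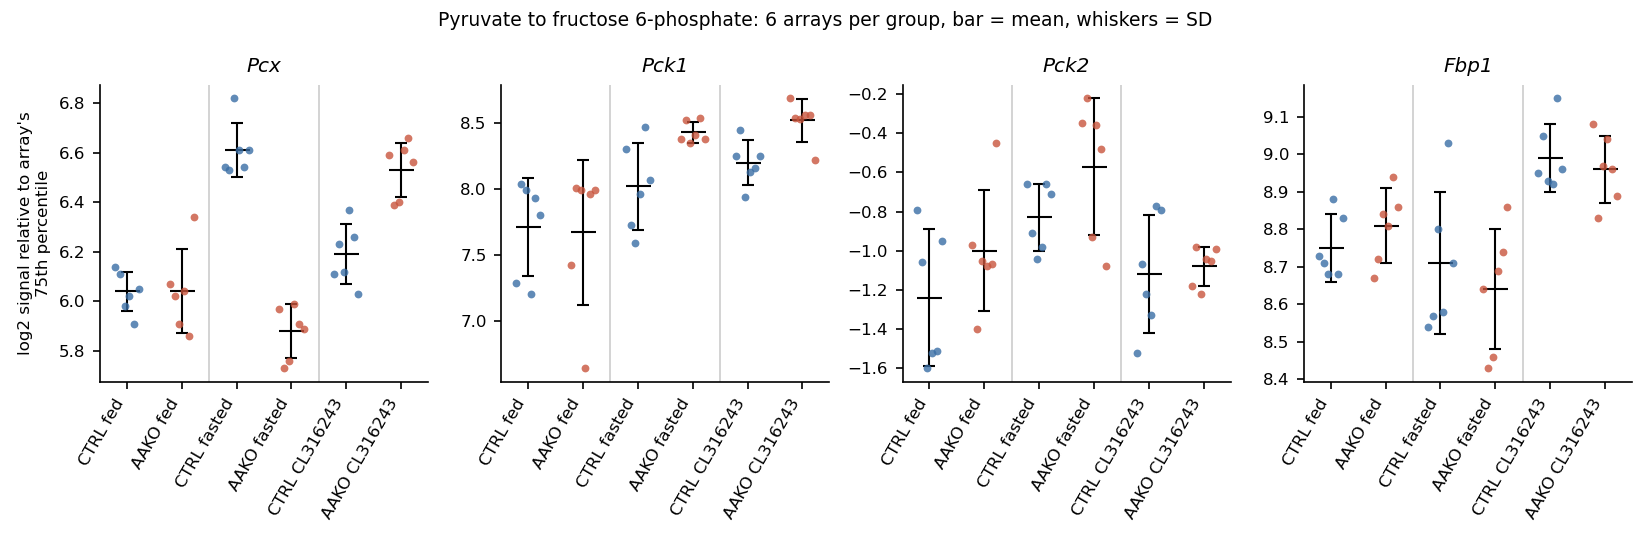
Log2 signal scaled to the array's 75th percentile for Pcx, Pck1, Pck2 and Fbp1 in 36 livers, drawn as points (blue CTRL, red AAKO, 6 per group) with group means and SDs. For Pcx the AAKO arrays lie below CTRL when fasted (5.73 to 5.99) and above CTRL after CL316243 (6.39 to 6.66), while Pck1 and Fbp1 of the 2 genotypes overlap in each condition.

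G6pc, the liver's glucose 6-phosphatase, had genotype differences on opposite sides of 0 under fasting and CL316243, neither of them called (probe at chr11:101238947-101239006 of mm9). Fasted values were 6.26, 6.80 and 7.41 (lowest, median, highest) in CTRL and 7.15, 7.55 and 7.85 in AAKO livers, with 5 of the 6 CTRL arrays below every AAKO array. The difference was 0.77 ± 0.39 (adjusted p = 0.105, interval -0.03 to 1.56), and a fit of these 2 groups alone gave the same 0.77 at an adjusted p of 0.0048. After CL316243 the values were 5.58, 6.01 and 6.74 in CTRL mice and 3.02, 5.66 and 6.19 in AAKO livers. The value of 3.02 belongs to AAKO CL316243 replicate 6, whose nearest neighbour was 5.44. The difference of -0.78 ± 0.39 (adjusted p = 0.151) shrank to -0.32 without it (adjusted p = 0.507). The difference between the fasted and the CL316243 genotype differences was called at 1.55 ± 0.55 (adjusted p = 0.0307). It was 1.08 without that array (adjusted p = 0.0453) and was lost without CTRL CL316243 replicate 4 (1.42, adjusted p = 0.0573). Within wash batches 1 and 2 it was 1.37 and 1.54, not called in either (adjusted p = 0.296 and 0.131).

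G6pc also varied widely among fed AAKO livers. CTRL fed arrays lay between 5.25 and 5.88, while AAKO fed arrays held 3 values of 6.40, 6.61 and 6.73 and 3 of 4.27, 4.86 and 5.16. The same 3 low AAKO fed arrays were the lowest of that group for the transporter Slc37a4, at 6.10, 6.11 and 6.32 against 6.52 to 6.75 in the other 3. CTRL fed arrays held Slc37a4 within 6.60 to 6.66. The fed means nearly coincided for G6pc, at 5.61 ± 0.28 and 5.67 ± 1.04 (SD, n = 6), although the spreads differed.

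G6pc3, the relative of G6pc found in most tissues, rose in fasted AAKO livers and fell in AAKO livers given CL316243 (probe at chr11:102055338-102055395 of mm9). Fasted values were 1.58, 1.86 and 1.98 in CTRL mice and 2.06, 2.15 and 2.31 in AAKO livers, with no overlap. The difference was 0.33 ± 0.06, or 1.26-fold (adjusted p = 8.30e-05), and it was 0.45 within wash batch 1 (adjusted p = 0.00348) and 0.21 within wash batch 2 (adjusted p = 0.0875). After CL316243 the ranges of 1.44 to 1.60 in CTRL and 1.11 to 1.45 in AAKO livers just overlapped. That difference of -0.22 ± 0.06, or 1.16-fold (adjusted p = 0.0128), was lost without AAKO CL316243 replicate 4 (-0.18, adjusted p = 0.0541), and was -0.21 and -0.24 within the wash batches (adjusted p = 0.174 and 0.18). It was not called with the mean of the probes (-0.17, adjusted p = 0.104). The fasted and CL316243 differences were unequal, by 0.55 ± 0.09 (adjusted p = 2.64e-05). A second G6pc3 probe gave 0.34 fasted and -0.13 after CL316243, the latter not called. Fed livers held 1.37 to 1.58 in CTRL and 1.26 to 1.41 in AAKO mice (difference -0.12 ± 0.06, adjusted p = 0.769).

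Slc37a4, which carries glucose 6-phosphate into the endoplasmic reticulum, was called higher in fasted AAKO livers on a thin margin (probe at chr9:44210978-44211037 of mm9). CTRL fasted arrays held 6.48, 6.72 and 7.10 (lowest, median, highest) and AAKO fasted arrays 6.80, 7.03 and 7.27, and the groups overlapped. The difference of 0.30 ± 0.12, or 1.23-fold (adjusted p = 0.0296), was lost without any 1 of 5 arrays. It was 0.29, 0.25 and 0.27 without CTRL fasted replicates 3, 5 and 6 (adjusted p = 0.0518, 0.0880 and 0.0687), and 0.26 and 0.28 without AAKO fasted replicates 2 and 4 (adjusted p = 0.0803 and 0.0570). It was 0.50 within wash batch 1 and 0.10 within wash batch 2 (adjusted p = 0.0218 and 0.627). A second Slc37a4 probe, far dimmer, went the other way at -0.74 (adjusted p = 0.00387 among probes), so that the mean of both was -0.22 (adjusted p = 0.158). After CL316243 the medians were 6.35 in CTRL and 6.49 in AAKO livers, and the difference was 0.15 ± 0.12 (adjusted p = 0.395).

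**Figure D3:**
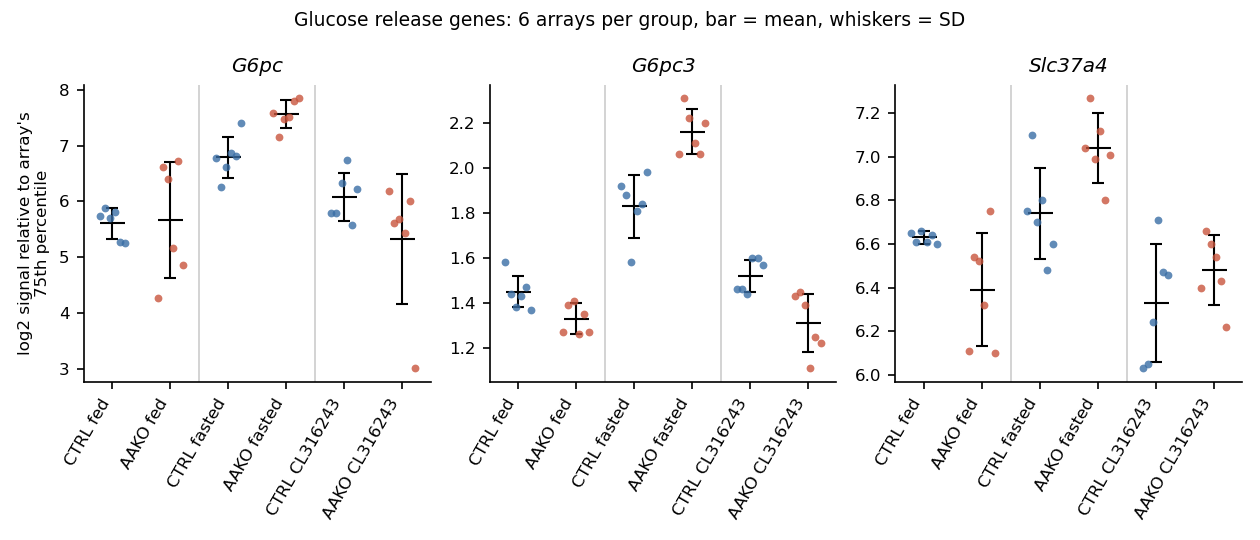
Log2 signal scaled to the array's 75th percentile for G6pc, G6pc3 and Slc37a4 in 36 livers, drawn as points (blue CTRL, red AAKO, 6 per group) with group means and SDs. G6pc3 of AAKO fasted livers (2.06 to 2.31) lies above all other groups, and G6pc shows 1 low array at 3.02 among the AAKO CL316243 livers.

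**Figure D4:**
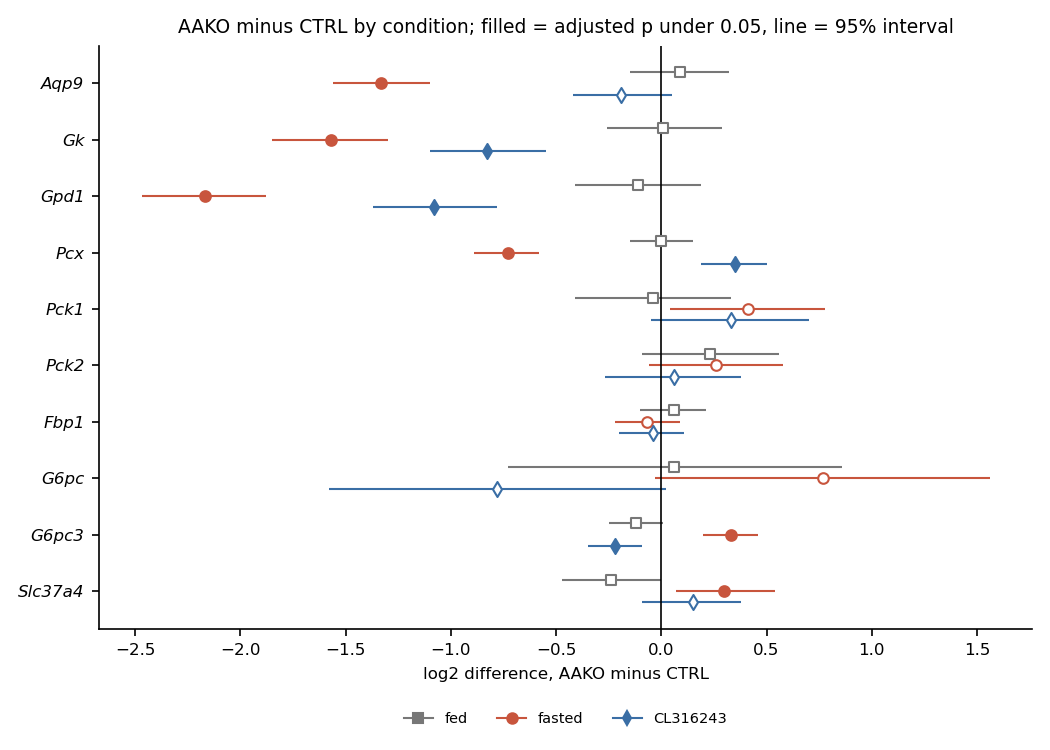
Log2 difference AAKO minus CTRL of the 10 genes in fed (squares), fasted (circles) and CL316243-treated (diamonds) livers. Horizontal lines are 95% intervals and filled symbols are called at an adjusted p under 0.05. Gpd1, Gk and Aqp9 lie at -2.17, -1.57 and -1.33 when fasted, Pcx lies on opposite sides of 0 at -0.73 and 0.35, and no fed symbol is filled.

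Whether the 2 stimuli move the same genes within a genotype was compared against the fed livers, with the experiment as a companion of the condition throughout and with the fed arrays shared by the comparisons of a genotype. In CTRL livers fasting went with 6 of the 10 genes higher and none lower, where 43.3% of all genes were called, 20.9% higher and 22.4% lower. The 6 were G6pc (1.18 ± 0.39), Gk (0.84 ± 0.14), Pcx (0.57 ± 0.07), Pck2 (0.41 ± 0.16), G6pc3 (0.39 ± 0.06) and Gpd1 (0.39 ± 0.15). The calls of G6pc, Gk, Pcx and G6pc3 held without any 1 array, but that of G6pc was lost within wash batch 1 (1.15, adjusted p = 0.215). That of Pck2 was lost without CTRL fasted replicate 1, 5 or 6 (0.38, 0.37 and 0.37) or CTRL fed replicate 3, 4 or 5 (0.34, 0.36 and 0.34), and that of Gpd1 without CTRL fasted replicate 4 or 6 (0.34 and 0.33) or CTRL fed replicate 2 or 3 (0.34 and 0.37). Within wash batch 2, Pck2 was at 0.23 and Gpd1 at 0.19, neither called, and Pck2 was not called with the slide as a block (0.42, adjusted p = 0.059). Both calls were also lost with median scaling (0.34 and 0.32) and in a fit of these 2 groups alone (0.41 and 0.39). That of Pck2 was lost with normexp background correction (0.28) and without the filter on dim probes (0.41). Aqp9 was not called at 0.20 ± 0.11, but was at 0.30 without CTRL fasted replicate 2 (adjusted p = 0.0217). It was also called with quantile normalization (0.32, adjusted p = 0.0267) and in the authors' table (0.30, adjusted p = 0.0374). Pck1 stood at 0.31 ± 0.18 (adjusted p = 0.177), beside the low fed arrays described above.

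In AAKO livers the fasted state differed from the fed state in both directions. Cell markers differed too, from fed to fasted AAKO livers. Hepatocyte markers summed to 2840 to 3040 and 2410 to 2610, stellate markers to 43.9 to 55.5 and 74.5 to 98.6, and endothelial markers to 15.9 to 17.9 and 19.3 to 24.5. None of these pairs of ranges overlapped, while those of the other cell types did. The part of these shifts was not tested. Of the 10 genes, 5 were higher and 3 lower, where 63.5% of all genes were called, 27.8% higher and 35.7% lower. G6pc (1.89 ± 0.39), G6pc3 (0.84 ± 0.06), Pck1 (0.76 ± 0.18), Slc37a4 (0.65 ± 0.12) and Pck2 (0.43 ± 0.16) rose. Gpd1 (-1.67 ± 0.15), Aqp9 (-1.21 ± 0.11) and Gk (-0.74 ± 0.14) fell below their fed levels. With the mean of its probes Slc37a4 was at 0.21 and not called (adjusted p = 0.164), and the dimmer of its probes stood at -0.24. Within wash batch 1 the call of G6pc was lost (1.39, adjusted p = 0.0829). Pcx, which had risen in CTRL livers, was at -0.16 ± 0.07 (adjusted p = 0.0554), a value called without AAKO fasted replicate 1 or 4 (-0.18 and -0.19) or AAKO fed replicate 3 or 5 (-0.19 and -0.20). Fbp1, at -0.17 ± 0.08 (adjusted p = 0.053), was called without AAKO fasted replicate 4, 5 or 6 (-0.19, -0.20 and -0.21) or AAKO fed replicate 1 (-0.19). The rise of Pck2 was lost without AAKO fasted replicate 2 (0.35) or AAKO fed replicate 2 (0.34), with the mean of its probes (0.31), and within wash batches 1 and 2 (0.32 and 0.54).

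The genotypes differed in these responses for 6 of the 10 genes, where 33.9% of all genes were called, in contrasts from which an experiment effect common to both genotypes cancels. The response of AAKO livers minus that of CTRL livers was -2.06 ± 0.21 for Gpd1, -1.59 ± 0.19 for Gk, -1.42 ± 0.16 for Aqp9 and -0.74 ± 0.11 for Pcx. It was 0.54 ± 0.16 for Slc37a4, on its brightest probe, and 0.45 ± 0.09 for G6pc3. The Slc37a4 value turned to -0.09 with the mean of its probes (adjusted p = 0.764) and was not called within wash batch 1 (0.60, adjusted p = 0.0713) or 2 (0.48, adjusted p = 0.137). That of G6pc3 was not called within wash batch 2 (0.37, adjusted p = 0.0684). For Pck1 and G6pc it was 0.45 ± 0.26 and 0.70 ± 0.55 and was not called (adjusted p = 0.186 and 0.35), with intervals of -0.08 to 0.98 and -0.42 to 1.83.

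CL316243 went with 4 of the 10 genes higher than in fed CTRL livers and none lower, where 23.3% of all genes were called, 10.4% higher and 12.8% lower. Stellate markers summed to 42.5 to 57.9 in CTRL fed and 28.3 to 40.8 in CTRL CL316243 livers, without overlap, and endothelial markers to medians of 15.8 and 10.8, and the part of these shifts was not tested. The 4 genes were the 3 genes of glycerol entry, Gk (0.68 ± 0.14), Gpd1 (0.62 ± 0.15) and Aqp9 (0.59 ± 0.11), and Fbp1 (0.24 ± 0.08). For each of the 4 the arrays of the 2 groups did not overlap, which was not counted over all genes. The call of Fbp1 was lost without CTRL CL316243 replicate 5 (0.22, adjusted p = 0.0505). Pck1 stood at 0.49 ± 0.18 (adjusted p = 0.0519) and was called without CTRL fed replicate 2, 3 or 5 (0.56, 0.55 and 0.53) or CTRL CL316243 replicate 3 (0.54). It was also called with normexp background correction (0.49), quantile normalization (0.59) and the authors' table (0.52). A stricter filter on dim probes, no wash batch term and a fit of these 2 groups alone each called it too, at 0.49. Slc37a4 stood at -0.30 ± 0.12 (adjusted p = 0.0558) and was called without CTRL CL316243 replicate 4 (-0.38) or 6 (-0.33). The calls were lost within wash batch 1 for Fbp1 (0.28), Gpd1 (0.66) and Gk (0.71), within wash batch 2 for Fbp1 (0.20), Gpd1 (0.58) and Aqp9 (0.53), and with the mean of its probes for Aqp9 (0.85, adjusted p = 0.0883). In AAKO livers 3 genes were higher and none lower, where 31.4% of all genes were called, 15.7% higher and 15.7% lower. They were Pck1 (0.85 ± 0.18), Pcx (0.50 ± 0.07) and Aqp9 (0.31 ± 0.12). Leaving out AAKO CL316243 replicate 1, 3 or 4 (0.23, 0.27 and 0.32) or AAKO fed replicate 1, 3, 4 or 5 (0.29, 0.31, 0.29 and 0.29) ended the call of Aqp9. Within wash batch 2, which held only 2 AAKO CL316243 arrays, none of the 3 was called (0.74, 0.36 and 0.31). Aqp9 was not called within wash batch 1 either (0.35, adjusted p = 0.0752), nor with the slide as a block (0.30). It was also not called without the filter on dim probes (0.31) or in a fit of these 2 groups alone (0.33). Gpd1 was at -0.35 ± 0.15 (adjusted p = 0.067) and Gk at -0.16 ± 0.14 (adjusted p = 0.418). Gpd1 was called lower without AAKO CL316243 replicate 3 (-0.42), with normexp background correction (-0.37), the mean of its probes (-0.40) and the slide as a block (-0.42). The replicate block (-0.35) and a fit of these 2 groups alone (-0.33) also called it. Its second, dimmer probe stood at -0.45 (adjusted p = 0.0128 among probes).

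The response to CL316243 differed between genotypes for 3 of the 10 genes, where 10.9% of all genes were called. It was lower in AAKO livers for Gpd1 (-0.97 ± 0.21, adjusted p = 0.00171) and Gk (-0.84 ± 0.19, adjusted p = 0.00337). Pcx responded more in AAKO livers (0.35 ± 0.11, adjusted p = 0.0295), a call lost without any 1 of 7 arrays. Those were AAKO CL316243 replicates 4 and 5 (0.33 and 0.32), AAKO fed replicates 3 and 5 (0.32 and 0.31), CTRL CL316243 replicates 3 and 6 (0.33 and 0.31) and CTRL fed replicate 1 (0.32), at adjusted p values of 0.0502 to 0.0622. The call of Pcx was also lost in the authors' table (0.30, adjusted p = 0.0524) and without the filter on dim probes (0.35, adjusted p = 0.0562). Within either wash batch alone none of these 3 genes was called, with values of -1.10 and -0.75 for Gpd1, -0.89 and -0.79 for Gk, and 0.36 and 0.31 for Pcx.

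Fasting and CL316243 can be set against each other within experiment 1. Cell markers moved with this comparison too. Stellate markers summed to 57.9 to 72.0 in fasted and 28.3 to 40.8 in CL316243 livers of CTRL mice, and to 74.5 to 98.6 and 30.8 to 49.6 in AAKO mice. Hepatocyte markers in AAKO livers summed to 2410 to 2610 when fasted and 2770 to 3140 after CL316243, and none of these pairs of ranges overlapped. Their part in the result was not tested. In CTRL livers 5 of the 10 genes differed, where 36.8% of all genes were called, 19.2% higher in fasting and 17.6% lower. Pcx (0.42 ± 0.07), Slc37a4 (0.41 ± 0.12) and G6pc3 (0.31 ± 0.06) were higher in fasting, and Aqp9 (-0.38 ± 0.11) and Fbp1 (-0.29 ± 0.08) were lower. In AAKO livers 9 of the 10 differed, where 59.9% of all genes were called, 26.2% higher and 33.8% lower. G6pc (2.26 ± 0.39), G6pc3 (0.86 ± 0.06), Slc37a4 (0.57 ± 0.12) and Pck2 (0.49 ± 0.16) were higher in fasting, whereas Aqp9 (-1.53 ± 0.12), Gpd1 (-1.32 ± 0.15), Pcx (-0.66 ± 0.07), Gk (-0.59 ± 0.14) and Fbp1 (-0.31 ± 0.08) were lower. Only Pck1 was uncalled in AAKO livers, at -0.09 ± 0.18, and its value in CTRL livers was -0.18 ± 0.18. The G6pc value was 1.80 without AAKO CL316243 replicate 6. Calls in CTRL livers were lost within wash batch 1 for G6pc3 (0.25), Fbp1 (-0.19), Slc37a4 (0.18) and Aqp9 (-0.34), and for Aqp9 also within wash batch 2 (-0.42) and with the mean of its probes (-0.40). In AAKO livers they were lost for Pck2 within wash batch 1 (0.30) and Slc37a4 within wash batch 2 (0.42).

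The gap between fasting and CL316243 differed between genotypes for 6 of the 10 genes, where 32.3% of all genes were called. Beside G6pc, G6pc3, Aqp9 and Pcx, given above, these were Gpd1 (-1.09 ± 0.21, adjusted p = 0.000114) and Gk (-0.75 ± 0.19, adjusted p = 0.00312; -0.46 and not called within wash batch 2). Fbp1 was lower in fasting by nearly the same amount in both genotypes, with a difference of -0.02 ± 0.11 and an interval of -0.24 to 0.20. The higher and lower shares of all genes in these comparisons move with the scaling. Genes higher in fasting than after CL316243 were 43.6% of the calls in AAKO livers, but 31.4% with another background correction and 58.3% in the authors' deposited table. In CTRL livers they were 52.2%, and 39.1% with median scaling. Of the calls between fasted and fed CTRL livers, 48.2% were higher in fasting, and 37.8% with median scaling. Of the calls between genotypes after CL316243, 54.3% were higher in AAKO, and 42.2% in the authors' deposited table.

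**Figure D5:**
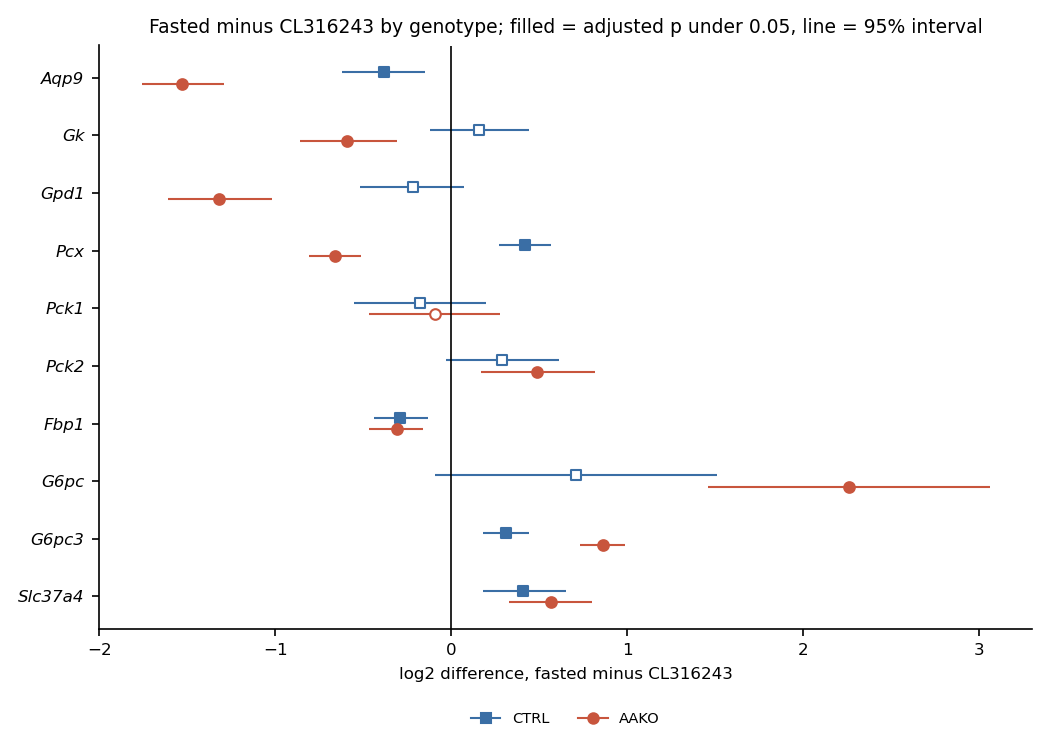
Log2 difference fasted minus CL316243 of the 10 genes in CTRL (blue squares) and AAKO (red circles) livers. Horizontal lines are 95% intervals and filled symbols are called at an adjusted p under 0.05. Pcx lies at 0.42 in CTRL and -0.66 in AAKO livers, G6pc at 2.26 in AAKO livers, and Fbp1 at nearly the same place in both genotypes.

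The 6 group medians of Gpd1 ran, from high to low, CTRL CL316243 (7.09), CTRL fasted (6.99), CTRL fed (6.48), AAKO fed (6.32), AAKO CL316243 (6.03) and AAKO fasted (4.66). The neighbours CTRL CL316243 and CTRL fasted overlapped and were not called apart, and neither were the fed groups. For Gk the 2 highest medians were CTRL fasted (3.24) and CTRL CL316243 (3.10), also not called apart, and the lowest was AAKO fasted (1.82). For Aqp9 both CL316243 groups stood highest (6.23 and 5.99), followed by CTRL fasted (5.93), AAKO fed (5.73), CTRL fed (5.62) and AAKO fasted (4.61). For Pcx the 2 highest were AAKO CL316243 (6.58) and CTRL fasted (6.57), and the lowest AAKO fasted (5.90). For G6pc the order was AAKO fasted (7.55), CTRL fasted (6.80), CTRL CL316243 (6.01), AAKO fed (5.78), CTRL fed (5.72) and AAKO CL316243 (5.66). The fasted groups overlapped each other, and CTRL fasted overlapped CTRL CL316243 and AAKO fed. CTRL fasted and CTRL CL316243 were not called apart (0.71 ± 0.39, adjusted p = 0.159), though a fit of these 2 groups alone called them (adjusted p = 0.0309).

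Other genes of the pathway were counted in 4 lists. Of 22 regulators of gluconeogenesis, 9 were higher and 5 lower in AAKO than CTRL fasted livers, where 21.3% of all genes tested were called higher and 28% lower, and with a median difference of 0.45 against -0.04 over all genes. Klf15, a Krüppel-like factor that promotes amino acid breakdown and gluconeogenesis, rose by 1.36 ± 0.15. Sik1, a kinase that restrains CREB coactivators, rose by 1.29 ± 0.29, and Foxo1, the insulin-restrained factor named above, by 1.22 ± 0.16. After CL316243, 5 regulators were higher and 7 lower, where 13.4% and 11.3% of all genes were (median -0.13 against 0.03). The 3 that differed most were Nr4a1, an orphan nuclear receptor induced by cyclic AMP (1.56 ± 0.47), Irs1, an adaptor of the insulin receptor (-1.21 ± 0.21), and Sik1 (1.00 ± 0.29). None of the 22 was called in fed livers, where 0.0784% of all genes were.

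Of 25 genes of substrate supply and shuttles, 9 were higher and 10 lower in AAKO fasted livers, against 21.3% and 28% of all genes tested, with a median of 0.07 against -0.04 over all genes. Sds, which makes pyruvate from serine, rose by 1.96 ± 0.21, and Got1, the cytosolic aspartate aminotransferase, by 1.88 ± 0.19. Gpd2, the mitochondrial glycerol 3-phosphate dehydrogenase that works beside Gpd1, fell by 1.82 ± 0.22 on the log2 scale. After CL316243, 5 were higher and 8 lower, against 13.4% and 11.3% of all genes (median -0.05 against 0.03). Sds (1.41 ± 0.21) and Tat (1.26 ± 0.13), which opens the breakdown of tyrosine, rose. Aqp3, another glycerol channel, was also called lower. It cleared the background on 3 of 6 CTRL arrays and was not well above background on any AAKO array. Only CTRL fasted livers (6 of 6 arrays) brought it past the filter on dim probes. With the AAKO arrays set at the lowest signal that was well above background, it was 1.33-fold lower in AAKO livers. The CTRL mean still held arrays not well above background, so the size of this difference is uncertain. None of the 25 was called in fed livers, where 0.0784% of all genes were.

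Of the 7 enzymes shared with glycolysis, none was higher in AAKO livers, while 4 were lower when fasted, where 28% of all genes were, and 2 after CL316243, where 11.3% were. The medians were -0.15 and -0.11, against -0.04 and 0.03 over all genes. In the authors' deposited table, the number called lower was 2 when fasted and 3 after CL316243. The fasted set was led by Eno1 (-0.35 ± 0.09), Gapdh (-0.26 ± 0.06) and Tpi1 (-0.19 ± 0.08), and the CL316243 set by Gpi1 (-0.62 ± 0.09), all enzymes of reversible steps. Of 9 glycolytic enzymes and regulators that oppose gluconeogenesis, 2 were higher and 2 lower in each of the 2 conditions, where 49.3% of all genes were called when fasted and 24.8% after CL316243. The medians were -0.07 fasted and 0.04 after CL316243, against -0.04 and 0.03 over all genes. Pfkfb3, which makes the glycolytic activator fructose 2,6-bisphosphate, rose by 2.04 ± 0.51 when fasted and by 1.44 ± 0.51 after CL316243. Pklr, the liver pyruvate kinase, was higher by 0.83 ± 0.25 when fasted and at -1.21 ± 0.26 after CL316243, and Pfkfb1 rose by 0.48 ± 0.16 after CL316243. None of these 16 genes was called in fed livers, where 0.0784% of all genes were.

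The genes whose signal most resembled Pck1 and G6pc over the 36 arrays were listed by Pearson r, as a description that mixes group differences with the spread inside groups. For Pck1 they were a transcript named in the files only by an interval on chromosome 16 (r = 0.978), another on chromosome 9 (0.847), Rapgef4 (0.820), one more such transcript on chromosome 7 (0.792) and Prpf18 (0.773). For G6pc they were Rgs16 (0.844), Gm40787 (0.840), Acot12 (0.837), a transcript named by an interval on chromosome 11 (0.834) and 6720462K09Rik (0.830). No gene of the 10 was among the 5 closest to either.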

How the data were processed

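Liver RNA was measured on 36 one-colour Agilent arrays, 6 per group. Spot intensity values were made by the authors with Agilent Feature Extraction 10.10.1.1, per the submitters' processing notes; no scaling between arrays was recorded per the file headers. The authors also deposited log2 values of 36898 probes; their normalization and probe filter are not given in the sources used here, and the columns of a group held the same sorted values (within 1e-06) in all 6 groups. Each column matched the log2 median intensity of its own array best (r of 0.99957 to 0.99981), which gives scale and direction; the column medians were 6.91, 6.93, 6.97, 7.01, 6.91 and 6.88 for CTRL fed, AAKO fed, CTRL fasted, AAKO fasted, CTRL CL316243 and AAKO CL316243. Genes did not appear centred.

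From the intensity values, log2 of the processed signal minus the array's 75th percentile over 59305 spots other than controls was taken, without spots marked as outliers (0.127%). Spots of 1 probe were averaged. RefSeq accessions named 32994 of the 56605 probes. Genes were tested whose brightest probe cleared the background on 5 or more of the 6 arrays of some group. The limma 3.58.1 fit (R 4.3.3, version 1.17.8 of data.table; lmFit and eBayes, two-sided) held 6 group means and the wash batch, and p-values were adjusted by Benjamini-Hochberg over 24250 genes. It was tested on simulated data. Wash batches 1 and 2 held 3 arrays each of a group, except for 4 and 2 of AAKO CL316243. Replicate numbers were not used to pair arrays in this fit. After group means were removed, the median r of arrays of different groups was 0.0051 for the same number and 0.00076 for different numbers. Of 90 same-numbered pairs, 14 correlated above 0.1, a count not set against different-numbered pairs. Motifs were searched on both strands. The alternatives were other background corrections, scalings, filters, probe rules, blocks, single wash batches, the authors' table, and leaving out each array. The 10 genes and the lists were chosen with earlier results of these data known. The text names all 10 genes, and from each list the 3 called genes with the largest difference between genotypes when fasted and after CL316243, apart from some list genes that are not reported here. The number of arrays limits the precision. Nothing in the labels says more on how the mice were bred or housed together, so p-values measure the spread between these arrays.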

Additional observations from a re-analysis of the deposited data

Results flagged for a closer look

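Dixon's test at the 95% level was applied to each of the 10 genes in each group of 6, and 6 of 60 sets had an array far from the rest, where chance gives about 1 in 20. In AAKO CL316243 livers replicate 6 was low for both Pck1 (8.22, nearest 8.53) and G6pc (3.02, nearest 5.44). In CTRL fasted livers replicate 2 was low for both Gpd1 (6.14, nearest 6.88) and Aqp9 (5.29, nearest 5.87). Without it the AAKO minus CTRL difference was -2.31 for Gpd1 and -1.43 for Aqp9. The other 2 were Pcx in CTRL fasted replicate 3 (6.82, nearest 6.61) and Gk in AAKO fasted replicate 2 (1.24, nearest 1.72), and without these arrays the fasted differences were -0.69 and -1.47.

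The genotype difference itself depended on the condition in 15 called interaction contrasts. In the order below these held 6, 3 and 6 of the 10 genes, where 33.9%, 10.9% and 32.3% of all genes were called. For fasted against fed livers they were -2.06 for Gpd1, -1.59 for Gk, -1.42 for Aqp9, -0.74 for Pcx, 0.54 for Slc37a4 and 0.45 for G6pc3. For CL316243 against fed livers they were -0.97 for Gpd1, -0.84 for Gk and 0.35 for Pcx. For fasted against CL316243 livers they were -1.14 for Aqp9, -1.09 for Gpd1, -1.08 for Pcx, -0.75 for Gk, 0.55 for G6pc3 and 1.55 for G6pc. The calls of Slc37a4 and G6pc, and all those for CL316243 against fed livers, were lost within either wash batch alone. Explanations were not tested.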

How the results depend on the processing

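Of 120 differences of the 10 genes, 26 lay within 1 SE of 0 uncalled and are given no direction. Counts of the 10 genes called moved by more than 1.5 times only within single wash batches, which hold fewer arrays. Within wash batch 1 they were 2 (from 4) between genotypes after CL316243, 1 (from 4) for CL316243 against fed CTRL, 1 (from 5) for fasted against CL316243 in CTRL, and 0 (from 3) for the interaction of genotype with CL316243. Within wash batch 2 they were 1 (from 4) for CL316243 against fed CTRL, 0 (from 3) for CL316243 against fed AAKO, and 0 (from 3) for that interaction. Leaving out 1 array kept these counts within 1.5 times, at 5 to 7 genes between fasted genotypes and 3 to 4 after CL316243. The shares of all genes called in these settings are not given here. Whether the 10 genes moved apart from all genes cannot be told from these counts. With the replicate block, 6 and 4 of the 10 genes were called between genotypes when fasted and after CL316243, as without it, and the only calls it changed were gains for Fbp1 (fasted against fed AAKO, -0.17), Pck1 (CL316243 against fed CTRL, 0.49) and Gpd1 (CL316243 against fed AAKO, -0.35).

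Signs turned for Pcx in fasted against fed AAKO livers (-0.16 to 0.03 with quantile normalization and in the authors' table), and, with the mean of the probes of a gene, for Slc37a4 between fasted genotypes (-0.22) and in its interaction with fasting (-0.09), Aqp9 between genotypes after CL316243 (0.73) and in its interaction of genotype with CL316243 (0.22), and G6pc3 for CL316243 against fed CTRL (-0.02). Within wash batch 2 they turned for Gk in fasted against CL316243 CTRL livers (-0.03) and Fbp1 in the interaction with fasting (0.13). Apart from these second probes, the causes were not tested. The authors' table shifted the median of all genes by 0.13 for fasted against CL316243 AAKO livers and by 0.11 for the interaction of genotype with condition. The differences of Gpd1, Gk, Aqp9 and Pcx between fasted genotypes were called under every alternative run. Dim second probes of Pck2 and Aqp9 limit what their genes can show.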
